A study of Homo sapiens with 12 samples.

Results

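The genes described here load and display peptides on MHC class I, and they comprise 9 of the 59191 features of a table of gene expression: HLA-B, HLA-C, HLA-E, HLA-F, B2M, TAP1, TAP2, TAPBP and NLRC5. They were taken by name for their known roles, with earlier results of these data known, so counts over them are no independent support. Each was matched to its row through its Ensembl identifier and the GENCODE 29 annotation. RNA was measured in 12 libraries, 3 in each of 4 groups, all from the established human liver cancer line Huh7. One group was the control, whose columns are named for DMSO, the solvent. The others were given disulfiram (DSF), an inhibitor of aldehyde dehydrogenase that binds copper through its metabolite, thalidomide (THAL), a ligand of the ubiquitin ligase receptor cereblon, or the combination of both. All groups are the same single cell line, which models no immune cells and no tissue. The sources used here give neither the treatment time nor the dose units.

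MHC class I molecules show short peptides from proteins made inside the cell to CD8 T cells. A heavy chain, encoded by an HLA gene, pairs with beta-2-microglobulin (B2M) in the endoplasmic reticulum. The proteasome cuts the peptides, the transporter TAP1-TAP2 carries them into the endoplasmic reticulum, and tapasin (TAPBP) bridges the transporter to empty heavy chains. NLRC5 is a transactivator that acts with the RFX and NF-Y complexes at class I promoters, which also hold sites for interferon regulatory factors (IRF) and for NF-kB. Liver tumour cells are known to carry class I at their surface, and interferons raise the genes of the pathway.

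Of the 9 genes, 7 lie in the MHC region of chromosome 6, between 29722775 and 33314387 in hg38 (GENCODE 29). HLA-F (ENSG00000204642) spans 29722775 to 29738528, HLA-E (ENSG00000204592) 30489467 to 30494205, and HLA-C (ENSG00000204525) 31268749 to 31272130. HLA-B (ENSG00000234745) is annotated from 31269491 to 31357188, a span that includes most of HLA-C on the same strand. TAP2 (ENSG00000204267) spans 32821833 to 32838780, TAP1 (ENSG00000168394) 32845209 to 32853978, and TAPBP (ENSG00000231925) 33299694 to 33314387. B2M (ENSG00000166710) is on chromosome 15 at 44711487 to 44718877, and NLRC5 (ENSG00000140853) on chromosome 16 at 56989485 to 57083531. Overlaps can affect the values: strand was not stated, so reads of TAP1 and its antisense neighbours PSMB9 and PSMB8-AS1, or of HLA-F and HLA-F-AS1, cannot be told apart where they overlap. The HLA genes are also near-identical copies that differ between people, and the alleles of Huh7 are not those of the reference, so the split of reads among them is uncertain.

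The stretches before the transcription starts are shown because they hold letters of known regulatory sites. The part of these sites in the changes with disulfiram was not tested. The set of RefSeq promoters used here (GRCh38.p14) held starts for 7 of the 9 genes and no entry for HLA-E and NLRC5. The 250 bases before each start were searched on both strands. In the lines printed here, capitals mark matches to AANNGAAA (a pair of IRF half-sites), GAANNGAAA (a stricter form, which the first overlaps), GGGNNTTCC (NF-kB) and CCAAT (bound by NF-Y), or to their reverse complements. The strand is that of the gene, 5′ to 3′. Positions are counted from the start, with -1 the base just before it. HLA-B and HLA-C run from -200 to -41 (chr6:31357220-31357379 and chr6:31272133-31272292, minus strand), and B2M from -150 to -41 (chr15:44711367-44711476, plus strand). HLA-F (chr6:29723269-29723298, plus), TAP1 (chr6:32853815-32853844, minus), TAP2 (chr6:32838780-32838809, minus) and TAPBP (chr6:33314079-33314108, minus) are shown as 30 bases around the site only, because some GENCODE 29 transcripts of these genes start further upstream.
HLA-B: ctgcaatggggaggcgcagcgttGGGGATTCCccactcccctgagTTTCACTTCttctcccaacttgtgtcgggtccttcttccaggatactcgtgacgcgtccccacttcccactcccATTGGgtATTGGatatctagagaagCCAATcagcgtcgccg
HLA-C: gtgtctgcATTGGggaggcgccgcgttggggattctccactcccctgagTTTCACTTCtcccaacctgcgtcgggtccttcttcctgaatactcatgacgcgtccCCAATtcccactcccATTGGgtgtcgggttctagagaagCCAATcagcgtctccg
HLA-F: tccccagagTTTCTCTTtctctcccaaccc
B2M: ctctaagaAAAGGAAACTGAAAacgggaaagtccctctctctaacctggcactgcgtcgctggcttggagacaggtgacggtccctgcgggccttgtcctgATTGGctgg
TAP1: ggccgcTTTCGATTTCGCTTtcccctaaat
TAP2: ggctgggGAAGCGAAAGCGAAAgctgcccg
TAPBP: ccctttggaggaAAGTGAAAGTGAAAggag

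All 7 genes with a start in that set held AANNGAAA, against 20.3% of 35116 RefSeq promoters of the same length. This motif was added after the sequences had been seen, since GAANNGAAA matched 3 of the 7 (HLA-B, HLA-C and TAP2), against 6.56% of promoters. The letters stood as a tandem run in B2M, TAP1, TAP2 and TAPBP, and as 1 copy in the HLA genes. GGGNNTTCC was found in 2 of 7, HLA-B (GGGGATTCC, -177 to -169) and TAPBP (GGGATTTCC, -55 to -47), against 5.78% of promoters. CCAAT was found in 5 of 7 (HLA-B, HLA-C, HLA-F, B2M and TAP1), against 32.0%. The STAT site TTCNNNGAA was found at the second RefSeq start of TAP1 alone, 1 of 7 genes against 6.57% of promoters. HLA-B and HLA-C are 89.0% identical over the 250 bases and HLA-B and HLA-F 80.4%, so matches in the heavy chain genes are not independent of each other. HLA-B and B2M, which are not copies of each other, aligned at 49.5%. A match is a run of letters and shows no binding.

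**Figure D1:**
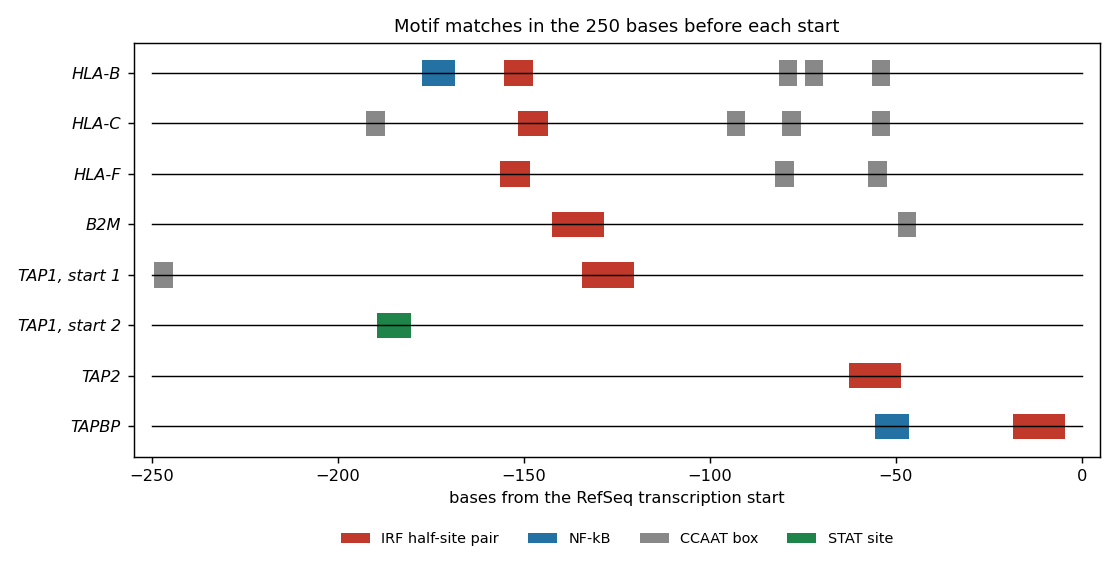
Position of motif matches in the 250 bases before the RefSeq start, in bases (x axis), for the 7 genes in the set of promoters used, TAP1 with both of its starts. Boxes are matches on either strand; the IRF half-site pair lies between -156 (HLA-F) and -121 (TAP1 start 1) in HLA-B, HLA-C, HLA-F, B2M and TAP1, and nearer to the start in TAP2 and TAPBP.

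Levels are given in TPM, a share of all transcripts scaled by length. How the libraries were made is unknown and reads may be split wrongly among HLA genes, so the order of levels is a description of these values only. In the controls B2M stood far above the rest at 634 ± 28.5 TPM (SD, n = 3, as for all such values here). The heavy chain genes HLA-C (46.9 ± 4.36 TPM) and HLA-E (40.7 ± 3.52 TPM) came next, with ranges that overlapped. TAPBP followed at 23.5 ± 1.87 TPM and TAP1 at 11.3 ± 0.981 TPM, both apart from their neighbours in the order. TAP2 (2.22 ± 1.36 TPM), HLA-B (1.80 ± 0.851 TPM), HLA-F (1.25 ± 0.534 TPM) and NLRC5 (0.987 ± 0.323 TPM) closed the order, and their ranges overlapped. The first 5 varied little between control libraries, relative to their means, and the other 4 more. The read depth is unknown because TPM keeps no counts, so no counting interval can be given.

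Most of the class I genes were higher with disulfiram. Of the 9 genes, 7 were higher than in control at an adjusted p below 0.05 and none was lower, where 8.73% of the 15352 genes tested were called higher (limma, Benjamini-Hochberg adjustment over all genes). The 7 include NLRC5, which passed the filter on low values only through the groups given disulfiram, where it is high. With median-of-ratios scaling 6 of the 9 were called higher, where 4.59% of all genes were called higher and 6.84% lower, against 4.52% lower without it. The libraries of the groups did not overlap for 8 of the 9, HLA-F being the exception, against 21.5% of all genes that were higher without overlap. The median log2 fold change of the 9 was 0.83, and of all genes tested 0.09. Fold changes are on log2(TPM + 1) and understate the change of the low genes. Nothing states that the libraries are separate cultures, so the p-values measure only the spread between libraries.

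The heavy chains HLA-C and HLA-E, the first a classical presenter and the second the ligand of the NKG2A receptor of natural killer cells, both rose. HLA-C stood at 47.2, 51.1 and 42.4 TPM in the controls and at 72.4, 74.3 and 84.0 TPM with disulfiram. All 3 treated libraries lay above all 3 controls (log2 fold change 0.70 ± 0.14 SE, adjusted p = 0.00758 by limma). HLA-E stood at 40.2, 44.5 and 37.5 TPM in the controls and at 71.3, 71.9 and 72.0 TPM with disulfiram. The treated libraries were nearly level with each other and again above every control (0.81 ± 0.14, adjusted p = 0.00401 by limma). HLA-B and HLA-F did not pass the threshold. HLA-B, a classical presenter that was low in these cells, stood at 1.64, 1.04 and 2.72 TPM in the controls and at 2.89, 9.97 and 5.10 TPM with disulfiram. The treated values did not overlap the controls but spanned a wide range (1.23 ± 0.54, adjusted p = 0.156 by limma). HLA-F, a non-classical heavy chain, stood at 0.80, 1.11 and 1.84 TPM in the controls and at 2.46, 1.72 and 1.69 TPM with disulfiram. Those groups overlapped (0.41 ± 0.21, adjusted p = 0.239 by limma).

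B2M, the shared light chain, stood at 601, 646 and 654 TPM in the controls and at 1191, 955 and 1053 TPM with disulfiram. The lowest treated library lay well above the highest control (0.75 ± 0.13, adjusted p = 0.00301 by limma), a ratio of group means of 1.68.

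Both subunits of the peptide transporter rose. TAP1 stood at 10.1, 11.7 and 11.9 TPM in the controls and at 23.2, 20.4 and 23.6 TPM with disulfiram. With a ratio of means of 1.99 and no overlap, it had the smallest adjusted p of the 9 genes (0.93 ± 0.11, adjusted p = 0.000365 by limma). TAP2 stood at 0.77, 2.42 and 3.47 TPM in the controls and at 15.9, 8.77 and 5.21 TPM with disulfiram. The groups were apart but each was widely spread (1.75 ± 0.40, adjusted p = 0.0137 by limma). Its call was lost when control 1 (1.37, adjusted p = 0.0543) or disulfiram 1 (1.38, adjusted p = 0.0519) was left out.

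TAPBP, the tapasin gene, stood at 23.1, 25.6 and 21.9 TPM in the controls and at 37.4, 47.3 and 43.1 TPM with disulfiram. All treated libraries lay above all controls (0.83 ± 0.12, adjusted p = 0.00161 by limma). NLRC5, the transactivator, stood at 0.73, 0.88 and 1.35 TPM in the controls and at 3.18, 1.84 and 2.72 TPM with disulfiram. These values are low but did not overlap (0.84 ± 0.23, adjusted p = 0.0349 by limma). NLRC5 had at least 1 TPM in only 1 control and 1 thalidomide library. Its call was lost under 8 of 16 alternatives, among them leaving out control 1 (adjusted p = 0.118), control 2 (0.0917), disulfiram 1 (0.120) or disulfiram 3 (0.103).

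**Figure D2:**
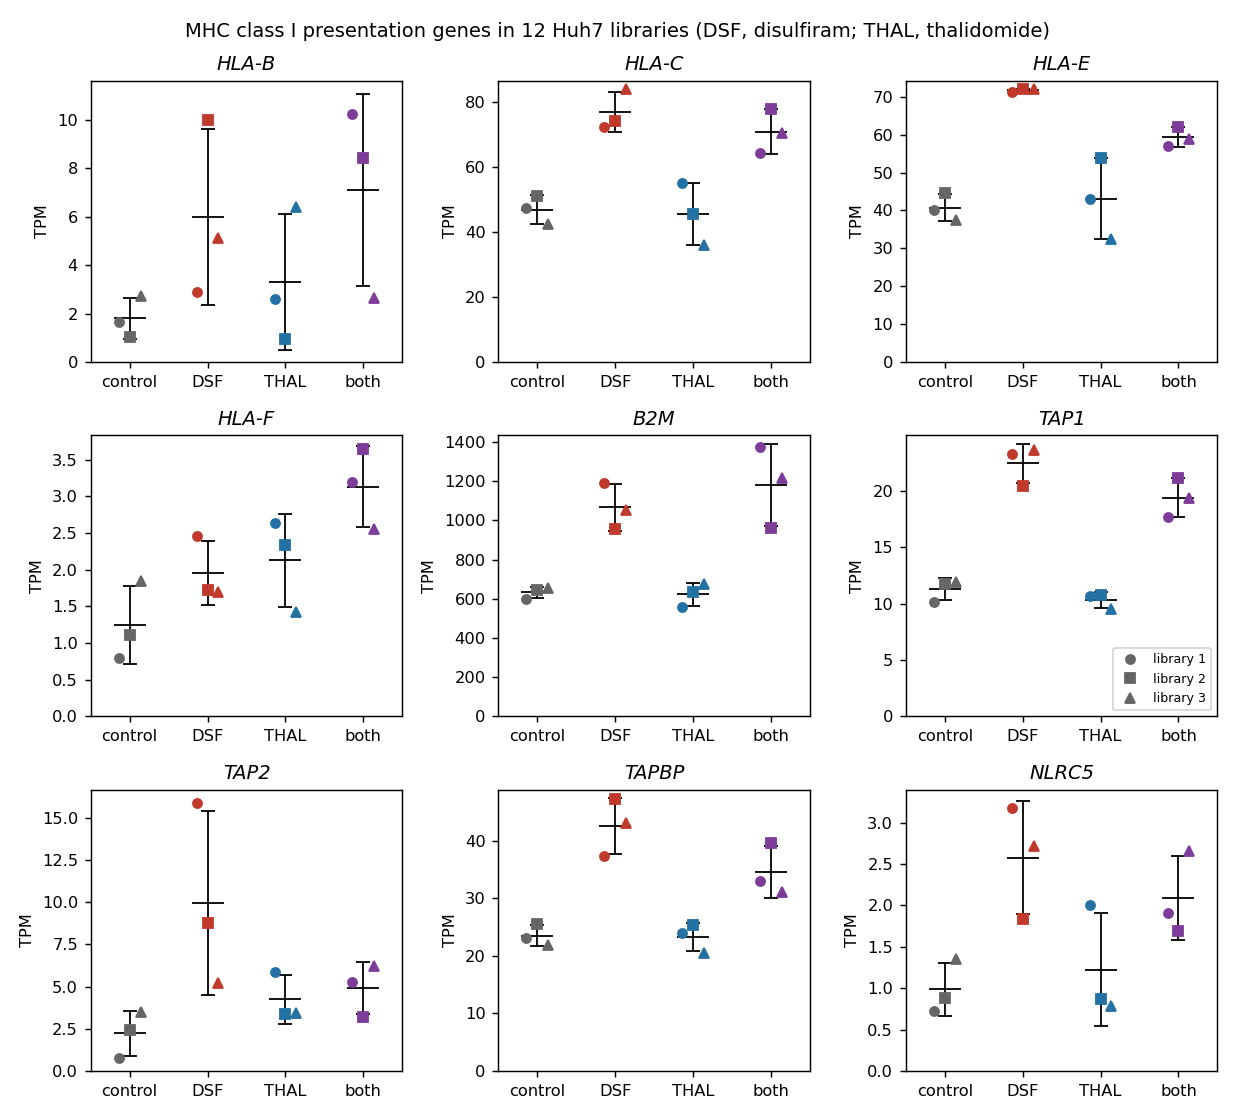
TPM (y axis, linear from 0, a scale of its own for each gene) of the 9 genes in the 3 libraries of each group; symbols are libraries and bars are the mean ± SD. TAP1, B2M, HLA-C, HLA-E and TAPBP sit higher with disulfiram and with both drugs than in any control or thalidomide library, while HLA-B and TAP2 are widely spread.

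Thalidomide alone moved none of the 9 past the threshold, where 0.0% of all genes were called (limma), and the groups overlapped for all 9, where 3.91% of all genes were higher and 6.32% lower without overlap. At an unadjusted p below 0.05 there was 1 of the 9 and 873 of all genes. That gene was HLA-F, at 2.64, 2.33 and 1.42 TPM against 0.80, 1.11 and 1.84 TPM in the controls (0.48 ± 0.21, adjusted p = 0.857 by limma). The more abundant genes had values near the controls, with 95% confidence intervals of the log2 fold change from -0.30 to 0.25 for B2M, from -0.35 to 0.12 for TAP1, from -0.29 to 0.25 for TAPBP, from -0.36 to 0.25 for HLA-C and from -0.26 to 0.36 for HLA-E. The intervals of TAP2 (-0.09 to 1.63) and HLA-B (-0.72 to 1.62) were far wider, and that of HLA-B held the value of 1.23 seen with disulfiram.

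With both drugs, 6 of the 9 genes were higher than in control and none was lower, where 18.4% of all genes were called higher (limma). The libraries did not overlap for 7 of the 9, against 33.9% of all genes higher without overlap. The median log2 fold change was 0.73 for the 9 and 0.20 for all genes tested. B2M was at 1374, 959 and 1215 TPM, all above the controls (0.88 ± 0.13, adjusted p = 0.00137 by limma). TAP1 was at 17.7, 21.2 and 19.3 TPM, also without overlap (0.73 ± 0.11, adjusted p = 0.00156 by limma). These genes kept their calls under all 17 alternatives tried for each. HLA-C, at 64.2, 78.0 and 70.5 TPM, rose by 0.59 ± 0.14 (adjusted p = 0.0137 by limma). HLA-E, at 56.9, 62.1 and 58.9 TPM, rose by 0.53 ± 0.14 (adjusted p = 0.0209 by limma), and TAPBP, at 33.0, 39.6 and 31.2 TPM, by 0.53 ± 0.12 (adjusted p = 0.0118 by limma). The call of HLA-C was lost without control 3 (adjusted p = 0.0524), and that of HLA-E without control 1, control 3, combination 1 or combination 3 (adjusted p from 0.0527 to 0.0716).

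HLA-F, not past the threshold with disulfiram, passed it with both drugs, at 3.19, 3.65 and 2.56 TPM against at most 1.84 TPM in the controls (0.89 ± 0.21, adjusted p = 0.0137 by limma). It missed the threshold without control 1 (0.75, adjusted p = 0.0546). HLA-B was at 10.2, 8.43 and 2.64 TPM, the third library falling within the control range (1.42 ± 0.54, adjusted p = 0.0695 by limma). Without that library it passed the threshold (1.92, adjusted p = 0.0447). TAP2 was at 5.30, 3.20 and 6.23 TPM and overlapped the controls (0.94 ± 0.40, adjusted p = 0.0951 by limma). NLRC5, at 1.91, 1.69 and 2.66 TPM, was above every control and missed the threshold (0.64 ± 0.23, adjusted p = 0.0652 by limma). When all libraries were rescaled to remove the shift of all genes (median-of-ratios), 3 of the 9 were called (B2M, TAP1 and HLA-F), where 7.9% of all genes were called higher and 13.9% lower. HLA-C was then at 0.35 (adjusted p = 0.142), HLA-E at 0.30 (0.177) and TAPBP at 0.30 (0.163). Quantile normalization also called 3 (B2M, TAP1 and HLA-C), where 8.17% of all genes were called higher and 11.4% lower. With array weights, which give less weight to discordant libraries, TAP2 (adjusted p = 0.0151) and NLRC5 (0.0033) passed too, where 40.1% of all genes were called higher.

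**Figure D3:**
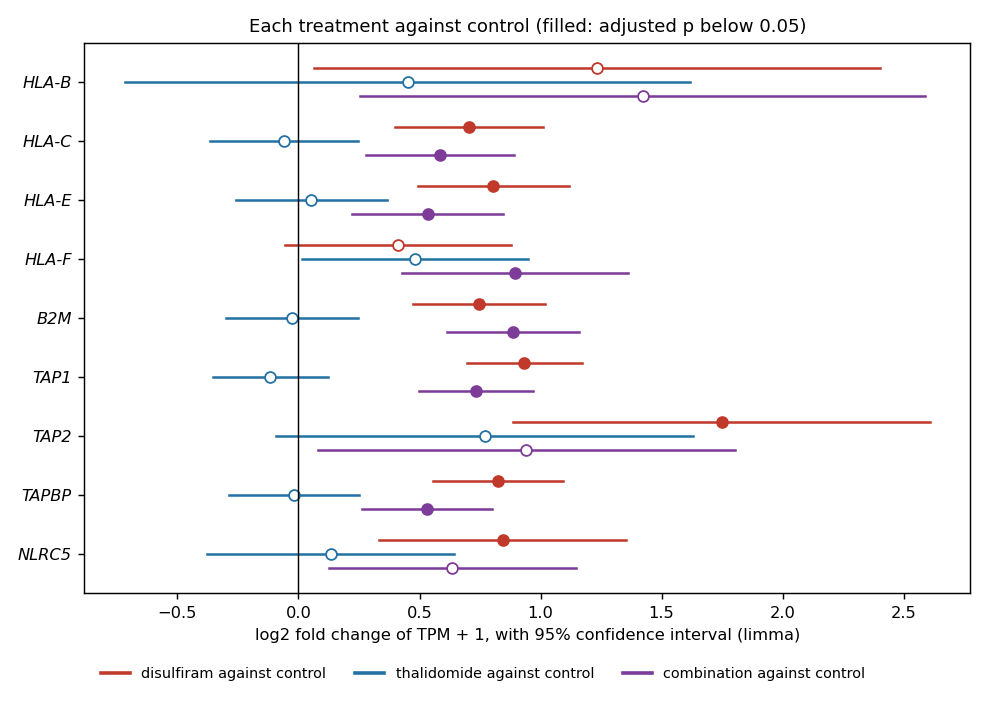
Log2 fold change of TPM + 1 against control (x axis) of the 9 genes for each treatment, with 95% confidence intervals from limma; filled points have an adjusted p below 0.05. All 9 values are above 0 for disulfiram and for the combination, 7 and 6 of them filled, and none is filled for thalidomide.

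The combination was set against each drug to ask what the second drug added. Against disulfiram alone, none of the 9 passed the threshold, where 0.00651% of all genes did (1 gene, by limma). Over all genes, 9.69% were higher and 6.54% lower without overlap. At an unadjusted p below 0.05 there were 2 of the 9 and 2631 of all genes. One was HLA-F, higher in all 3 combination libraries than in any disulfiram library (0.48, 95% interval 0.02 to 0.95, adjusted p = 0.285 by limma). The other was TAPBP, lower with the combination (-0.29, interval -0.56 to -0.02, adjusted p = 0.276 by limma). HLA-E was at 56.9 to 62.1 TPM with both drugs and at 71.3 to 72.0 TPM with disulfiram alone, without overlap (-0.27, interval -0.58 to 0.04, adjusted p = 0.331 by limma). For B2M the interval was -0.13 to 0.41, for HLA-C -0.42 to 0.19, for TAP1 -0.44 to 0.04 and for NLRC5 -0.72 to 0.30. TAP2 (-1.67 to 0.05) and HLA-B (-0.98 to 1.36) were too spread to bound a difference closely. With array weights TAP1 (-0.26, adjusted p = 0.0425) and TAPBP (-0.38, adjusted p = 0.0216) were called lower with the combination, where 5.24% of all genes were called lower and 13.7% higher.

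Against thalidomide alone, the combination was higher for 5 of the 9 (HLA-C, HLA-E, B2M, TAP1 and TAPBP), where 25.0% of all genes were called higher (limma). TAP1 had a log2 fold change of 0.85 ± 0.11 there (adjusted p = 0.000477 by limma) and B2M one of 0.91 ± 0.13 (adjusted p = 0.000732 by limma). The call of HLA-E (0.48 ± 0.14, adjusted p = 0.0258 by limma) was lost without thalidomide 1, thalidomide 3 or any 1 combination library (adjusted p from 0.0507 to 0.0723). With median-of-ratios scaling 2 of the 9, B2M and TAP1, were called, where 10.4% of all genes were called higher and 15.6% lower. HLA-C was then at 0.38 (adjusted p = 0.103), TAPBP at 0.29 (0.164) and HLA-E at 0.22 (0.310). The same 5 genes were higher with disulfiram than with thalidomide, where 11.9% of all genes were called higher. TAP1 again had the smallest adjusted p (1.05 ± 0.11, adjusted p = 0.000122 by limma). These comparisons share libraries with those above. The interaction, the log2 change under both drugs beyond the sum of the changes under each, was called for none of the 9 and for 0.0% of all genes (limma). At an unadjusted p below 0.05 there was 1 of the 9 and 1580 of all genes. That was TAP2 (-1.58, interval -2.80 to -0.36, adjusted p = 0.466 by limma), whose single-drug values of 9.96 ± 5.44 TPM with disulfiram and 4.24 ± 1.43 TPM with thalidomide stood beside 4.91 ± 1.55 TPM with both.

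**Figure D4:**
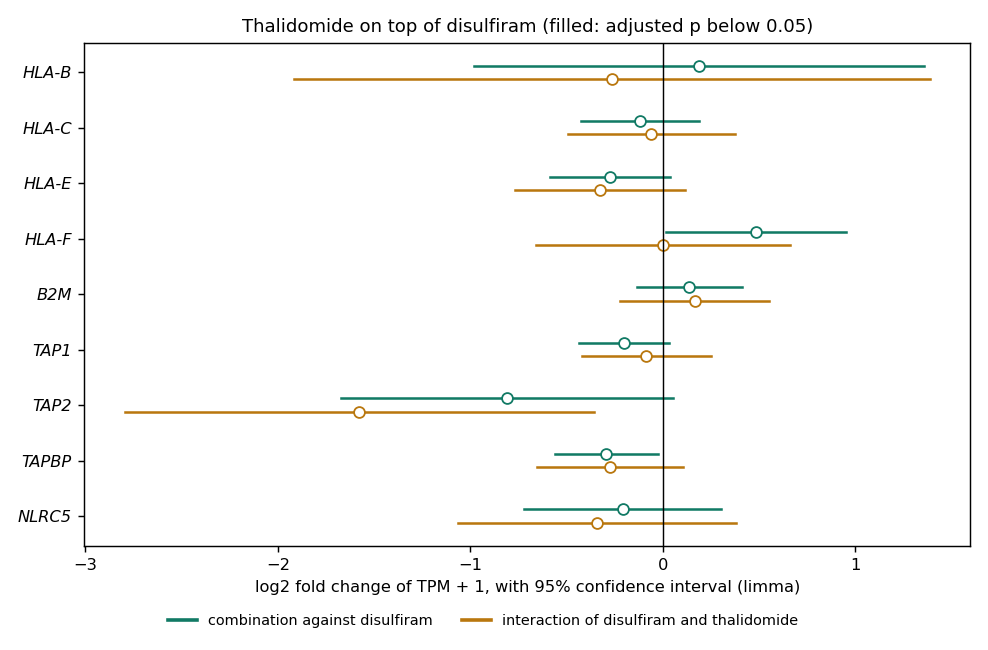
Log2 difference between the combination and disulfiram alone, and the interaction of the drugs (x axis), for the 9 genes with 95% confidence intervals from limma. No point is filled, since no adjusted p was below 0.05, and the intervals of HLA-B and TAP2 are the widest.

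The other steps of the pathway were read from 7 lists with 68 genes, of which 47 passed the filter on low values. These lists too were chosen with earlier results of these data known. With disulfiram 13 of the 47 were higher, where the share over all genes was 8.73%, and 4 were lower, where it was 4.52%. With both drugs 15 were higher and 5 lower, where the shares over all genes were 18.4% and 6.7%. The thalidomide group had none. The median log2 fold change of the 47 was 0.13 with disulfiram and 0.25 with both drugs.

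The immunoproteasome replaces the catalytic subunits of the proteasome and yields peptides suited to class I. Of its 5 listed genes, activator included, 3 were higher with disulfiram, where 8.73% of all genes were, and none was lower. PSMB9, whose RefSeq start lies 488 bases from that of TAP1 in the opposite direction, stood at 7.74, 11.3 and 10.1 TPM in the controls and at 22.5, 15.9 and 23.6 TPM with disulfiram. All treated libraries lay above the controls (1.01 ± 0.22, adjusted p = 0.0115 by limma), and the call was lost without control 1 (adjusted p = 0.0508) or disulfiram 3 (0.051). PSMB8 stood at 9.30 ± 1.01 TPM in the controls and 14.2 ± 1.20 TPM with disulfiram (0.57 ± 0.15, adjusted p = 0.0266 by limma), a call lost under 11 of 17 alternatives, every single library left out among them (adjusted p from 0.0505 to 0.102). PSMB10 rose from 34.2 ± 5.18 to 50.6 ± 5.07 TPM (0.56 ± 0.12, adjusted p = 0.0123 by limma). Its call was lost under median-of-ratios scaling (0.43, adjusted p = 0.0657) and without control 1 (0.0502) or disulfiram 1 (0.051). The activator genes PSME1 (0.06) and PSME2 (0.13) did not pass. With both drugs 2 of 5 were higher, where 18.4% of all genes were. These 2 were PSMB9 (0.78 ± 0.22, adjusted p = 0.0265 by limma) and PSMB8 (0.45 ± 0.15, adjusted p = 0.0438 by limma), calls lost under 9 and 11 of 17 alternatives. Both were lost without control 1, control 3, combination 1 or combination 3 (adjusted p from 0.0599 to 0.0961 for PSMB9 and from 0.0774 to 0.140 for PSMB8), and PSMB8 also without control 2 (0.0665). None of the 3 constitutive subunits that these replace passed in either comparison, although PSMB7 passed with both drugs after quantile normalization (0.28, adjusted p = 0.0217) and with array weights (0.26, adjusted p = 0.00499). PSMB6, for example, stood at 517 ± 28.6 TPM in the controls and 529 ± 8.72 TPM with disulfiram, and PSMB7 at 441 ± 17.6 and 489 ± 14.5 TPM.

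Among genes of peptide loading, calreticulin, PDIA3 and calnexin went the other way from tapasin (TAPBP). Of 6 tested genes of loading and trimming, out of 8 listed, 3 were lower with disulfiram, where 4.52% of all genes were. None was higher. Calreticulin (CALR), which holds the heavy chain and B2M until a peptide is bound, stood at 1410, 1216 and 1294 TPM in the controls and at 820, 979 and 819 TPM with disulfiram. The groups were well apart (-0.58 ± 0.11, adjusted p = 0.00489 by limma). PDIA3, the oxidoreductase of the loading complex, fell from 310 ± 34.9 to 210 ± 10.1 TPM (-0.55 ± 0.09, adjusted p = 0.002 by limma). CANX, calnexin, was at 237 ± 5.06 and 174 ± 30.0 TPM (-0.46 ± 0.13, adjusted p = 0.0405 by limma), a call lost under 8 of 17 alternatives, including without any 1 control, disulfiram 2 or disulfiram 3 (adjusted p from 0.0577 to 0.103). These chaperones fold many other glycoproteins too. With both drugs CALR (-0.61 ± 0.11) and PDIA3 (-0.46 ± 0.09) were lower, CANX did not pass (-0.02 ± 0.13), and TPP2, a cytosolic peptidase, was higher (0.67 ± 0.22, adjusted p = 0.042 by limma). After correction for GC content CANX was called lower with both drugs (-0.40, adjusted p = 0.000637), and TPP2 was at 0.24 (adjusted p = 0.202). TPP2 lost its call under 9 of 17 alternatives, among them median-of-ratios scaling (0.45, adjusted p = 0.0976) and leaving out control 1, control 3, combination 1 or combination 3 (adjusted p from 0.116 to 0.141).

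Among transcription factors of class I genes and the interferon signalling chain, 22 of 24 listed genes were tested. With disulfiram 9 were higher and 1 was lower, where the shares over all genes were 8.73% and 4.52%. IRF9, the DNA-binding subunit of the complex that answers type I interferon, had the largest change of the list, from 7.87, 10.0 and 6.92 TPM in the controls to 30.9, 26.7 and 34.4 TPM (1.78 ± 0.14, adjusted p = 3.7e-05 by limma). RFX5, a subunit of the RFX complex that NLRC5 acts with, stood at 7.71, 9.22 and 11.6 TPM in the controls and at 24.5, 17.4 and 19.1 TPM with disulfiram (1.03 ± 0.17, adjusted p = 0.00327 by limma). IRF1, an activator of class I and TAP1 promoters, rose from 37.9 ± 3.02 to 60.4 ± 5.04 TPM (0.66 ± 0.10, adjusted p = 0.00134 by limma). NFKB2 and RELB, partners in the non-canonical NF-kB pathway, rose by 0.82 ± 0.10 and 0.72 ± 0.11 (adjusted p = 0.00051 and 0.00164 by limma). The others higher were STAT2, RELA, TYK2 and IFNGR2, and the NF-Y subunit NFYC was lower (-0.33 ± 0.08, adjusted p = 0.0188 by limma).

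With both drugs 11 of the 22 were higher and 1, NFYC, was lower, where the shares over all genes were 18.4% and 6.7%. IRF9 was at 22.9 ± 1.19 TPM (1.38 ± 0.14, adjusted p = 0.000188 by limma), RFX5 at 17.3 ± 0.663 TPM (0.82 ± 0.17, adjusted p = 0.00837) and NFKB2 at 61.4 ± 6.22 TPM (0.57 ± 0.10, adjusted p = 0.00433). Under median-of-ratios scaling NFKB2 was at 0.33 and missed the threshold (adjusted p = 0.0816). IRF1 (0.39 ± 0.10, adjusted p = 0.0145) and RELB (0.34 ± 0.11, adjusted p = 0.0413) were called but lost their calls under 3 and 10 of 17 alternatives, IRF1 without control 1 (0.0545) and RELB without any 1 library (0.0651 to 0.116). With median-of-ratios scaling their values were 0.16 (adjusted p = 0.384) and 0.11 (0.582). The interferon genes themselves were at or near 0: none of 8 passed the filter, IFNA1 was listed at 0 in all 12 libraries, and IFNB1 in all but the second disulfiram library, at 0.08 TPM.

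Where 8.73% of all genes were higher with disulfiram, 1 of 8 tested class I-like genes was. That was HLA-G, a non-classical heavy chain known from the placenta, listed at 0, 0.04 and 0 TPM in the controls and at 1.62, 3.09 and 2.92 TPM with disulfiram (1.78 ± 0.18, adjusted p = 0.000149 by limma). It was at 0, 0.07 and 0.10 TPM with thalidomide and at 3.41, 3.28 and 2.92 TPM with both drugs (2.05 ± 0.18, adjusted p = 6.23e-05 by limma). It passed the filter on low values through the groups where it is high, and reads shared with other HLA genes could reach it. HFE, an iron-related class I-like gene, was lower with both drugs (-0.48 ± 0.12, adjusted p = 0.0155 by limma), as was FCGRT, the neonatal Fc receptor (-0.42 ± 0.13, adjusted p = 0.0372 by limma). FCGRT lost its call under 6 of 17 alternatives, including without control 1, control 2, combination 1 or combination 3 (adjusted p from 0.0903 to 0.140), and HFE without control 1, control 3 or combination 3 (0.058 to 0.0717). None of 3 tested MHC class II genes, out of 9 listed, passed in either comparison, although HLA-DMB was called lower with both drugs under array weights (-0.57, adjusted p = 0.0459). HLA-DQB1 stood at 3.83 ± 2.23 TPM in the controls and 7.89 ± 2.60 TPM with disulfiram (0.93 ± 0.39, adjusted p = 0.136 by limma), and HLA-DMB at 3.13 ± 1.54 and 3.20 ± 1.16 TPM.

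**Figure D5:**
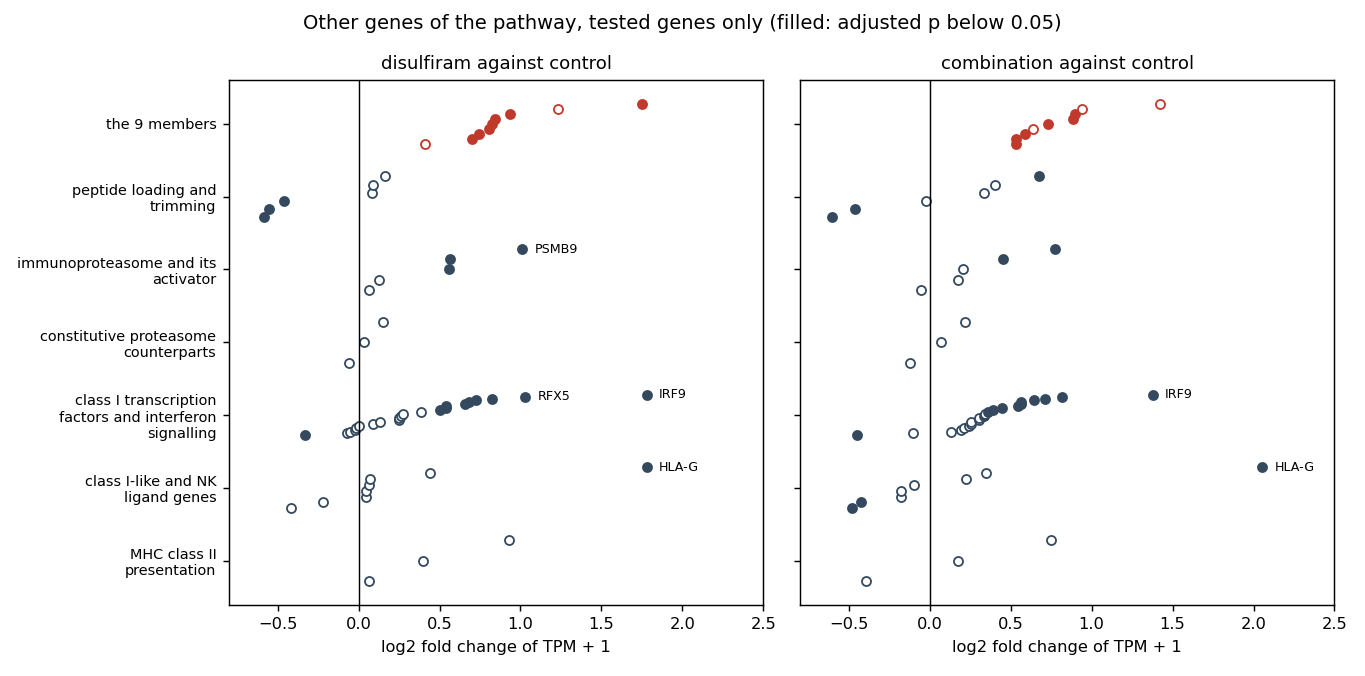
Log2 fold change of TPM + 1 (x axis) of the 9 genes and of the tested genes of the other lists, 1 point a gene, for disulfiram (left) and the combination (right) against control; filled points have an adjusted p below 0.05. Among the other lists, CALR, PDIA3 and CANX stand below 0 on the left, IRF9 and HLA-G farthest above 0 on both sides, and the constitutive proteasome subunits close to 0.

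Other genes in the same stretch of chromosome 6 were called too. Of 119 other tested genes between HLA-F and TAPBP, 25 were higher with disulfiram (21.0%) and 3 lower, where 8.73% of all genes were higher and 4.52% lower. With both drugs 25 were higher (21.0%) and 6 lower, where 18.4% of all genes were higher and 6.7% lower. The share higher with both drugs was thus near that of all genes. These neighbours include genes of the lists, such as PSMB8 and PSMB9.

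The genes whose pattern over the 12 libraries was most like the mean of the 9 (each gene scaled to unit spread) were AC015912.3, STX4, MT1B, NPR2, MT1L, DLX2, NMB and RNF167. Their Pearson correlation with that mean was from 0.97 to 0.98 over 12 libraries, which share their TPM totals and fall apart into those with and without disulfiram. MT1B and DLX2 passed the filter on low values only through the groups given disulfiram, so their likeness is no independent support. DLX2 was at 0.12 TPM in the controls and 0.19 with thalidomide, against 1.90 with disulfiram and 1.82 with both. STX4, a syntaxin of the plasma membrane, stood at 55.6 ± 2.87 TPM in the controls and at 74.7 ± 2.37, 56.7 ± 2.28 and 76.3 ± 3.31 TPM with disulfiram, thalidomide and both. MT1B, a metallothionein that binds zinc and copper, was listed at 0 in every control and was at 157 ± 23.8 TPM with disulfiram and 169 ± 25.4 TPM with both. NMB, the gene of the peptide neuromedin B, was at 34.8 ± 2.27, 83.4 ± 3.79, 35.3 ± 0.918 and 70.9 ± 4.76 TPM in the same order of groups. In the mean of the 9 the control and thalidomide libraries lay between -1.20 and -0.30 SD and those with disulfiram between 0.56 and 0.98 SD.

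Measures of the whole libraries moved with the groups as well. Genes with at least 1 TPM numbered 13693 to 14097 in the controls, 14206 to 14790 with disulfiram, 13711 to 14207 with thalidomide and 14681 to 15038 with both drugs. Mitochondrial transcripts took 10.4% to 11.1% of the total in the controls, 9.96% to 11.1% with disulfiram, 10.2% to 10.9% with thalidomide and 8.24% to 10.3% with both. The part of these measures in the class I values was not tested. The second disulfiram and second combination libraries stood apart, in that genes rich in GC were high there relative to the rest of the group (Spearman's rho over genes of 0.60 and 0.66). This rho lay between -0.18 and 0.13 for control libraries and between -0.59 and 0.48 for the remaining ones. Without these libraries 7 of the 9 genes were called higher with disulfiram, where 11.5% of all genes were, and 7 with both drugs, where 29.4% were. All 10 hepatocyte markers were at 1 TPM or more in at least 1 group, which cannot tell Huh7 from other liver cells. Of these markers, TTR was lower with disulfiram (-0.85 ± 0.21, adjusted p = 0.0196 by limma). The hepatocyte markers summed to 4327 to 6870 TPM in the controls, 4112 to 4161 with disulfiram, 5512 to 7667 with thalidomide and 3704 to 4823 with both, so that each disulfiram library was below every control. Leukocyte markers reached 1 TPM for 3 of 14 (CD14, CD3D and LYZ), while PTPRC and CD3E were below 1 TPM in every group and MS4A1 was at 0. Their sum was 118 to 180 TPM in the controls, 76.8 to 150 with disulfiram, 123 to 172 with thalidomide and 102 to 108 with both. CD14 made up most of it, at 132 ± 35.3, 81.9 ± 35.0, 142 ± 25.2 and 79.3 ± 1.43 TPM in the same order. Its mean was thus lower with disulfiram, but it was not called. CD3D (1.06 ± 0.31, adjusted p = 0.0424 by limma) and LYZ (1.05 ± 0.26, adjusted p = 0.0213 by limma) were higher with disulfiram. Endothelial markers reached 1 TPM for 2 of 8, PECAM1 (1.52 ± 0.25, adjusted p = 0.00248 by limma) and ESAM (0.94 ± 0.16, adjusted p = 0.00367 by limma), both higher with disulfiram. Their list summed to 1.97 to 3.12 TPM in the controls, 6.07 to 10.9 with disulfiram, 2.76 to 3.70 with thalidomide and 5.92 to 8.12 with both, and TEK was at 0. Fibroblast and stellate markers reached 1 TPM for 5 of 9 and none was called, with sums of 72.5 to 85.3 TPM in the controls, 57.9 to 72.7 with disulfiram, 56.6 to 85.9 with thalidomide and 62.4 to 87.8 with both. The part of these markers in the class I values was not tested. In values taken over a whole library, fewer cells of a type and less RNA per cell cannot be told apart.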

How the data were processed

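RNA of 12 Huh7 libraries was measured, 3 in each of 4 groups, and groups were taken from the sample titles. The deposited table holds TPM per gene, computed by the authors, with HISAT2 2.0, StringTie 1.3.0 and hg38 named in the submitters' processing notes. The annotation, filters and strand are not stated there or in the labels. The labels' extract protocol describes droplet sequencing of single cells from tumour tissue, which does not match a cell line table with 1 column per library, so how the libraries were made is unknown. This can affect the length scaling of TPM. The depth per library is unknown.

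Of 59191 features, 58884 have an Ensembl identifier and 58611 of these matched GENCODE 29, as did all 118 listed genes. Genes with at least 1 TPM in at least 3 of the 12 libraries were tested (15352). Values were transformed to log2(TPM + 1), and groups were compared with limma 3.58.1 (R 4.3.3) with its mean-variance trend, all libraries in 1 fit, two-sided, with Benjamini-Hochberg adjustment over all genes and a threshold of 0.05. The fit was tested on simulated data. No replicate block was used, since the labels do not say what a replicate number shares. A fit with the block was run as an alternative.

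The members and lists were chosen with earlier results of these data known, so a list's count is no independent support. Genes named were the 9 members, IRF1, PSMB8 and PSMB9, up to 4 genes per other list with the largest change past the threshold with disulfiram or the combination (the 2 with the highest control TPM where none passed) and the 8 most alike in pattern. One gene that this rule picked is not reported here. PSME1, PSME2, STAT2, RELA, TYK2, IFNGR2 and NFYC were added after their values were seen, as were the cell type markers named. The alternatives were a pseudocount of 0.1, no filter, a mean of at least 5 TPM, median-of-ratios scaling, quantile normalization, array weights, a replicate block, GC correction with and without it, only the compared groups, each library left out, and the second disulfiram and combination libraries removed.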

Additional observations from a re-analysis of the deposited data

How the results depend on the processing

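With disulfiram against control, HLA-C, HLA-E, B2M, TAP1 and TAPBP stayed past the threshold under all 17 alternatives, and the 9 log2 fold changes were above 0 under every alternative run, as were those of the combination. The count of members called ranged from 5 to 7 with each library left out in turn (5 without control 1 or disulfiram 1), and that of the other pathway genes from 12 to 15, against 17. Over all genes tested, 8.73% were called higher and 4.52% lower with every library kept. With 1 library left out these shares ran from 4.8% to 8.78% and from 2.79% to 4.17%.

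For the combination against control, 6 members were called, against 3 under median-of-ratios scaling, 3 after quantile normalization, and 4 to 6 with 1 library left out (4 without control 1 or control 3). Of the other pathway genes 20 were called, against 13 with no filter, 9 under median-of-ratios scaling, 13 after quantile normalization, 33 with array weights, and 10 to 23 with 1 library left out (10 without control 1 or combination 3, 11 without control 3, 12 without combination 1). Over all genes tested, 18.4% were called higher and 6.7% lower. The shares were 5.77% and 2.3% with no filter, 7.9% and 13.9% under median-of-ratios scaling, and 8.17% and 11.4% after quantile normalization. Array weights gave 40.1% and 13.1%. With 1 library left out the shares ran from 6.08% to 25.2% and from 3.2% to 7.95%. For the combination against disulfiram, array weights called 2 members and 13 other genes, against 0 and 0. With these weights 13.7% of all genes were called higher and 5.24% lower, against 0.0% and 0.00651% without them. For the combination against thalidomide, 5 members were called, against 2 under median-of-ratios scaling, 3 after quantile normalization and 4 to 5 with 1 library left out. There 24 other genes were called, against 12, 15 and 14 to 29, the 14 without combination 3. Median-of-ratios scaling moved the median log2 change of all genes from 0.20 to 0.00 for the combination and from 0.09 to -0.01 for disulfiram. The cause of the other changes was not tested.

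Over single members, 1046 values from the alternatives kept their side of the threshold, 36 lost it and 13 gained it. These counts pool all comparisons. In thalidomide against control, combination against disulfiram and the interaction no member was called, so no call could be lost there. No value past the threshold changed sign. The filter on a mean of 5 TPM left out HLA-B, HLA-F and NLRC5, so they have no value there.

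Most same-numbered libraries of different groups did not deviate together: 4 of 18 pairs correlated over 0.1 (range -0.15 to 0.37). Pairs with different numbers passed 0.1 too, such as thalidomide 1 with combination 2 (0.23) and disulfiram 2 with thalidomide 1 (0.21). Others of them went down to -0.30 (disulfiram 2 with combination 1). The highest value was that of the second disulfiram and second combination libraries (0.37), and the first libraries of these groups reached 0.21. Of 12 libraries, 6 correlated best with their own number. Whether this is more than unrelated numbers would give was not tested. With the replicate block, 7 members were called with disulfiram, 6 with the combination and 5 each for the combination and for disulfiram against thalidomide, as without it, and 17, 18, 23 and 20 other genes. In the same order, 7.61%, 17.1%, 23.5% and 10.8% of all genes were called higher with the block, and 4.03%, 6.22%, 6.7% and 4.75% lower.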
